A study of Rattus norvegicus with 24 samples.

Results

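The Rab genes encode small GTPases that mark the membranes of a cell, and 56 of them were measured among 14217 genes in sandwich-cultured primary rat hepatocytes, liver cells kept between layers of collagen. Every gene was taken whose symbol on the array platform is Rab followed by a number and an optional letter, and each was read from its probe set with the highest mean level. For 24 h the cells had received either the solvent or 1 of 4 piperazines sold as recreational designer drugs. The treated groups were 625 µM BZP (benzylpiperazine), 35 µM TFMPP (trifluoromethylphenylpiperazine), 522 µM MeOPP (methoxyphenylpiperazine) and 467 µM MDBP (methylenedioxybenzylpiperazine), each at its EC20, a concentration with an effect of 20%. Each group had 3 arrays, and every treated array had its own control in 0.1% DMSO named in the labels, which made 12 pairs. The strain, sex and age of the rats, and whether arrays came from separate animals or cultures, were not given in the sources used here.

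A Rab protein switches between a GTP-bound form, in which it recruits effectors to a membrane, and a GDP-bound form, in which GDI carries it through the cytosol. Exchange factors load GTP, GTPase-activating proteins end the active state, and a lipid group added by the Rab prenyltransferase anchors the protein. Different Rabs mark different compartments: ER and Golgi, early and recycling endosomes, late endosomes and lysosomes, and secretory vesicles. In hepatocytes this traffic secretes plasma proteins, takes up lipoproteins and delivers transporters to the bile canaliculus.

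All 9 measured hepatocyte markers had DMSO means of at least 9.77 on the log2 scale, with albumin at 14.07, and their list mean was 11.8 to 12.4 in treated arrays and 12.2 to 12.7 in DMSO arrays. Markers of other liver cell types were also read. The list mean of 13 Kupffer cell and leukocyte markers was 4.81 to 5.98 in treated arrays and 5.00 to 6.17 in DMSO arrays, and limma called 1 of them higher and 7 lower in the mean of the 4 drugs, in which 18% of all genes were called higher and 11.9% lower. For 10 stellate cell markers it was 4.89 to 5.73 in treated arrays and 4.89 to 5.67 in DMSO arrays, with 1 higher and 1 lower. By limma 0 of 8 endothelial and 0 of 6 cholangiocyte markers were called, with 1 and 0 at an unadjusted p under 0.05. Their list means were 4.21 to 6.15 and 4.12 to 4.35 in treated arrays, against 4.22 to 6.27 and 4.10 to 4.44 in DMSO arrays. Single genes differed widely within these lists. DMSO means ran from 2.94 (Adgre1) to 10.20 (Cd14) for Kupffer cells and leukocytes and from 4.07 (Tagln) to 7.98 (Dcn) for stellate cells. For endothelium they ran from 3.09 (Vwf) to 8.88 (Fcgr2b) and for cholangiocytes from 2.62 (Cftr) to 8.12 (Epcam). Of the hepatocyte markers 0 rose and 5 fell. The part of these shifts in the Rab results was not tested, and in bulk RNA fewer cells of a type and less RNA per cell cannot be told apart. The DMSO arrays fell into 5 sets by their correlation, called preparations here, which the labels do not name. Whether they are separate isolations of cells is not known, and preparation 5 holds 1 pair.

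Of the 56 Rab genes, 45 had a promoter in the RefSeq table for the GRCr8 build. The 250 bases before the start site are shown for the 4 genes that were called with at least 3 drugs, because their responses recurred across the drugs. Bases are in gene orientation, and capitals mark a CCAAT box or a GGGCGG box on either strand, both common in mammalian promoters.
Rab30: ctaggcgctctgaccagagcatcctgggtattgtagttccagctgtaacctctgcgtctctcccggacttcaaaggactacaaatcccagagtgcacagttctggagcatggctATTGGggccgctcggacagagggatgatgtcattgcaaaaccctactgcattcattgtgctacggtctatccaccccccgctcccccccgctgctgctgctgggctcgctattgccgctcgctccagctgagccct
Rab32: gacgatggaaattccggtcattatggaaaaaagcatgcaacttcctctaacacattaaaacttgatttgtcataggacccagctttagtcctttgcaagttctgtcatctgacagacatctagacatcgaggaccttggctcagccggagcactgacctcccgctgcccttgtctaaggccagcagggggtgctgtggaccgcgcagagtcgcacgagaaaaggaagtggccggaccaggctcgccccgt
Rab7a: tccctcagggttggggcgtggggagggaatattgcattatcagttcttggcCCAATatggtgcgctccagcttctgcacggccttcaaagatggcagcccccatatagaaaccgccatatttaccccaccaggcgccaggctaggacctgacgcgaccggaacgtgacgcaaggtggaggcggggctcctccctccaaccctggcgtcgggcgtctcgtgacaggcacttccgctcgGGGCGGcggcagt
Rab12: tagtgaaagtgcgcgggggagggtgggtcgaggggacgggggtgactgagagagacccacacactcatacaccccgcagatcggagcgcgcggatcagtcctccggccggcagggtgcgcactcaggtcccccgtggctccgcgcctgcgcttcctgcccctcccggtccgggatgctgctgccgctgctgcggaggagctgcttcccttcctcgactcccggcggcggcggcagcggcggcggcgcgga
The Rab30 window lies at chr1:156215887-156216136 on the plus strand, and the other windows lie on the minus strand, Rab32 at chr1:6781259-6781508, Rab7a at chr4:122064186-122064435 and Rab12 at chr9:113953617-113953866. CCAAT was found on the other strand of Rab30 at -136 to -132 from the start, and on the gene strand of Rab7a at -199 to -195. Rab7a also held GGGCGG at -13 to -8, and neither motif was found in the Rab32 and Rab12 windows. The shares of Rab windows take 1 window per gene. The shares of all windows were not limited to 1 per gene or to measured genes, so the sets are unlike. The GGGCGG box was present in 35 of the 45 Rab windows (77.8%), against 30.5% of all 33469 windows in the table. Whether the unlike sets account for this gap was not tested. CCAAT was in 15 Rab windows (33.3%), against 34% of all windows. The E-box CACGTG was in 3 (6.67%), against 5.59% of all windows, and the cyclic AMP response element TGACGTCA was in 1 (2.22%), against 1.59%. Both strands were searched for each motif.

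In the mean of the 4 drugs, limma called 22 of the 56 Rab genes at an adjusted p under 0.05, with 16 higher and 6 lower (39.3%). The same test called 29.9% of all genes. Higher calls were 28.6% of the Rab genes, against 18% of all genes, and lower calls were 10.7%, against 11.9%. The median change of the Rab genes was 0.08, against 0.01 for all genes, as treated minus paired DMSO on the log2 scale. Rab30 and Rab32 stood above the rest at 1.34 and 1.10, while the other 14 rises lay between 0.16 and 0.34. The 6 falls lay between -0.46 and -0.22, and the 34 genes not called lay between -0.14 and 0.22. Treated and DMSO levels overlapped over the 12 arrays of each kind in every Rab gene. The genes changed in the same direction in 12 of 12 pairs were Rab30, Rab32, Rab40c, Rab12, Rab22a, Rab10 and Rab38. These are 7 of the 56, and the share of all genes that did so is not given here. Leaving out 1 pair at a time gave 17 to 24 called Rab genes. The share of all genes called in these fits was 26% to 29.4%. With the pairs averaged to 1 value per preparation 14 were called (25%), against 19.2% of all genes, and all 14 were among the 22.

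**Figure D1:**
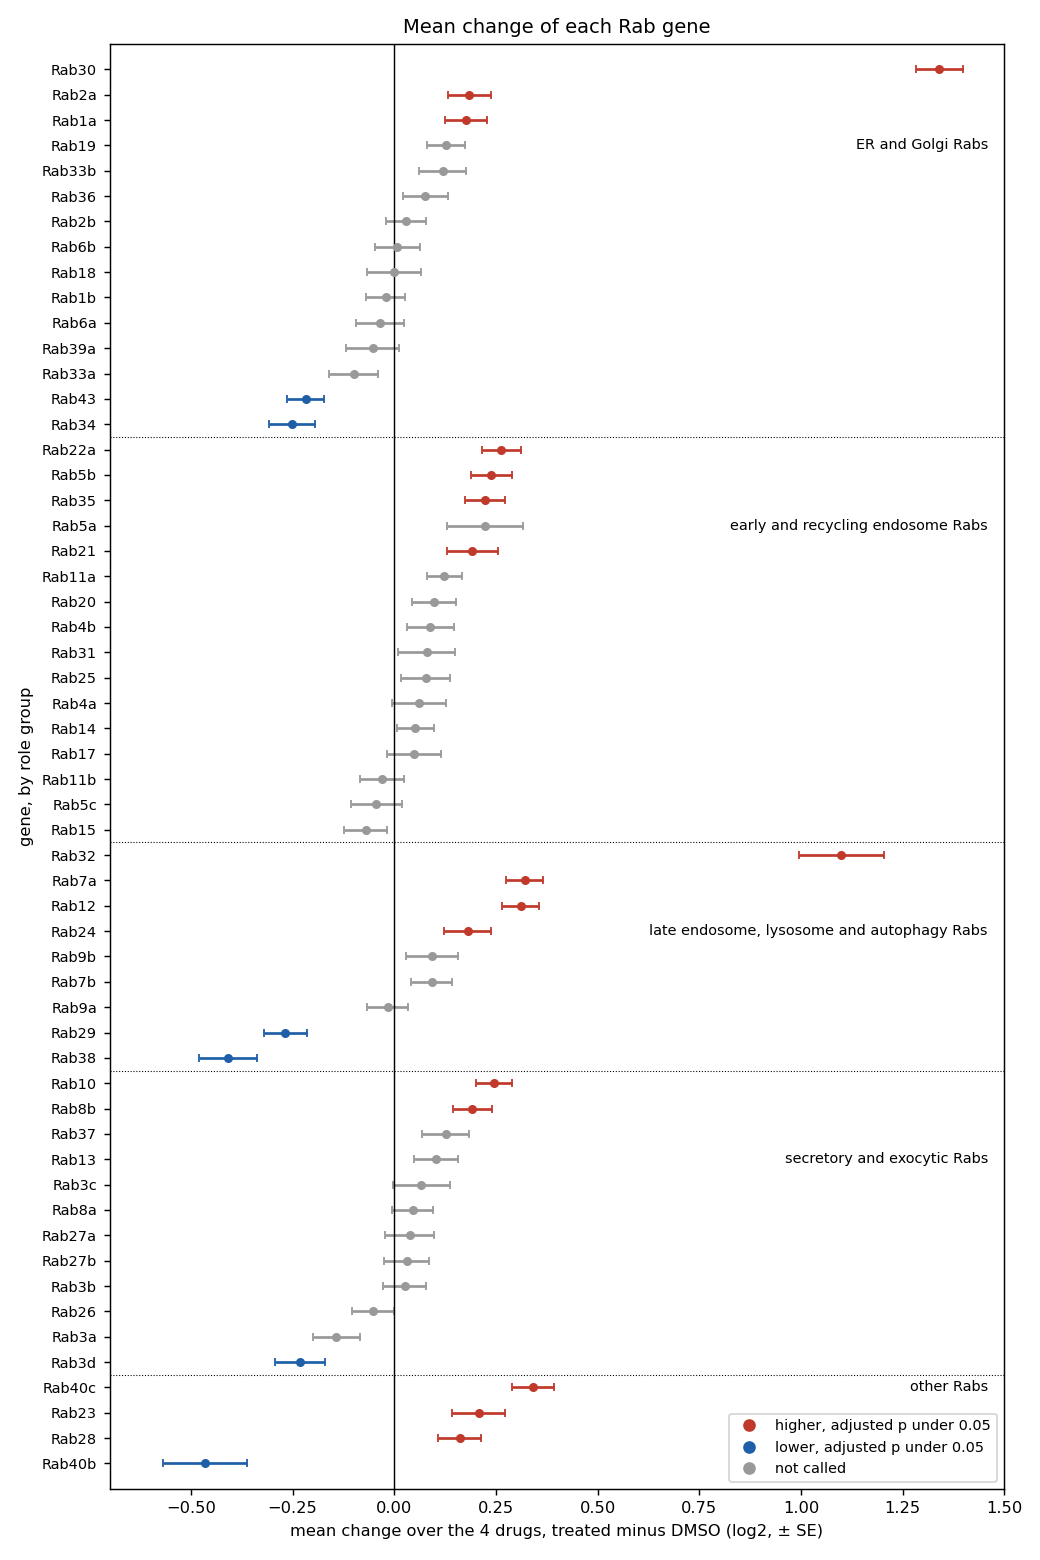
Mean change over the 4 drugs of each of the 56 Rab genes, treated minus paired DMSO on the log2 scale, with the standard error of the model as bars and genes grouped by role from top to bottom. Red points are the 16 genes called higher, blue points the 6 called lower and grey points the 34 not called. Rab30 at 1.34 and Rab32 at 1.10 lie apart from the rest.

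Among the 15 measured ER and Golgi Rabs, 3 rose and 2 fell (33.3% called, against 29.9% of all genes). Rab30, a Golgi Rab, was 8.36, 9.46 and 10.44 in the treated arrays and 7.39, 8.26 and 9.12 in the DMSO arrays (lowest, median and highest log2 level). The treated and DMSO ranges overlapped, as the second TFMPP array, at 8.36, lay below the DMSO arrays of preparations 1 and 4. Its change was 1.34 ± 0.06 (SE, 12 pairs), a 2.53-fold rise in 12 of 12 pairs (adjusted p = 5.21e-10). The second Rab30 probe set was also higher, by 0.72 ± 0.05. Rab30 was the member with the highest rise, in a group whose median change was 0.01.

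Rab1a, which directs transport from the ER to the Golgi, was 11.98, 12.14 and 12.22 in treated arrays and 11.38, 12.02 and 12.13 in DMSO arrays. The lowest DMSO array was the control of the third BZP pair. The change of 0.18 ± 0.05 was higher in 11 of 12 pairs (adjusted p = 0.0212). It missed the threshold without the third BZP pair (adjusted p = 0.0532), the first TFMPP pair (0.0532), the first MeOPP pair (0.0516) or the third MDBP pair (0.0584). With 1 value per preparation its adjusted p was 0.126. Rab2a, which acts between ER and Golgi, rose by 0.18 on its main probe set, but its other probe set was called lower at -0.32, so its direction depends on the probes read. With 1 value per preparation its adjusted p was 0.0681, and with the probe sets averaged it was not called.

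The falls in this group were Rab34, a Golgi and ciliary Rab, and Rab43, which acts in transport to and through the Golgi. Rab34 was 6.16, 6.59 and 6.94 in treated arrays and 6.49, 6.79 and 7.35 in DMSO arrays, a change of -0.25 ± 0.06 that was lower in 10 of 12 pairs (adjusted p = 0.00336). The second probe set of Rab34 lay at 0.00 and was not called. Rab43 was 6.46, 6.83 and 7.19 in treated arrays and 6.73, 7.05 and 7.50 in DMSO arrays, a change of -0.22 ± 0.05 that was lower in 11 of 12 pairs (adjusted p = 0.00202). Rab18, a Rab of the ER and of lipid droplets, had 6 pairs higher and 6 lower. It was 8.39, 8.84 and 9.20 in treated arrays and 8.10, 8.88 and 9.36 in DMSO arrays, with a change of -0.00 ± 0.07 (adjusted p = 0.996). The other 9 genes of the group that were not called lay between -0.10 and 0.13.

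Among the 16 early and recycling endosome Rabs, 4 rose and 0 fell (25% called, against 29.9% of all genes). At an unadjusted p under 0.05, limma counted 6 of the 16, against 40.8% of all genes. Rab22a, which acts at early endosomes, was 7.36, 7.68 and 7.92 in treated arrays and 7.15, 7.47 and 7.73 in DMSO arrays. Its change of 0.26 ± 0.05 was higher in 12 of 12 pairs (adjusted p = 0.000719). Its 2 other probe sets lay at 0.04 and -0.02 and were not called, and with the probe sets averaged its adjusted p was 0.0827. The other rises were Rab5b (0.24), Rab35 (0.22) and Rab21 (0.19), named after their values were seen. A further Rab5b probe set was called at 0.16, and its others, at 0.01, 0.01 and 0.13, were not. Rab35 returns cargo to the plasma membrane, and Rab21 carries integrins through early endosomes. Rab21 missed the threshold in 8 of the 12 fits that left out 1 pair (adjusted p = 0.051 to 0.0971 in those 8), as it did with 1 value per preparation (0.0803). The pairs were the third BZP pair, the first and the second TFMPP pairs, each MeOPP pair and the second and the third MDBP pairs. Rab35 was called without each pair and missed the threshold with 1 value per preparation (adjusted p = 0.0794).

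Rab5a, the defining Rab of early endosomes, was 8.83, 9.64 and 9.88 in treated arrays and 7.72, 9.46 and 9.83 in DMSO arrays. Its change of 0.22 ± 0.09 did not pass the test (adjusted p = 0.109). The third BZP pair had 1.11 and the third MDBP pair 0.63, and both belong to preparation 3, where the DMSO mean was 7.97, against 9.28 to 9.62 in the other preparations. Without the second BZP pair its adjusted p was 0.0255, and without the first MDBP pair it was 0.0412. Rab11a, the recycling endosome Rab that serves the bile canaliculus, was 10.94, 11.06 and 11.15 in treated arrays and 10.76, 10.96 and 11.05 in DMSO arrays. Its change of 0.12 ± 0.04 lay at the threshold (adjusted p = 0.0503). It passed without the third MeOPP pair (adjusted p = 0.0428) or the first MDBP pair (0.0432), and also with dim probe sets left out (0.0217), with quantile normalization repeated (0.0179) and with probe sets averaged (0.0366).

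Among the 9 late endosome, lysosome and autophagy Rabs, 4 rose and 2 fell (66.7% called, against 29.9% of all genes). Rab32, which acts in lysosome-related organelles and at mitochondria, was 6.30, 7.29 and 8.07 in treated arrays and 5.26, 6.23 and 6.97 in DMSO arrays. Its change of 1.10 ± 0.10 was a 2.14-fold rise in 12 of 12 pairs (adjusted p = 1.17e-06). Rab38, its close relative, moved the other way: it was 5.89, 6.24 and 7.35 in treated arrays and 6.11, 6.63 and 8.12 in DMSO arrays. The change of -0.41 ± 0.07 was lower in 12 of 12 pairs (adjusted p = 0.000503). Rab29, the remaining member of this subfamily and a binding partner of the kinase LRRK2, was 8.21, 8.40 and 8.82 in treated arrays and 8.28, 8.64 and 9.28 in DMSO arrays. Its change of -0.27 ± 0.05 was lower in 11 of 12 pairs (adjusted p = 0.00143). These genes were set side by side because they moved in opposite directions. A gap above 0 between Rab32 and Rab38 in each of the 12 pairs follows from their directions, and it was 0.78 to 2.48. The change of Rab32 exceeded that of Rab29 by 0.54 to 2.27 in the 12 pairs.

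Rab7a, which drives the fusion of late endosomes and autophagosomes with lysosomes, was 9.25, 9.46 and 9.61 in treated arrays and 8.96, 9.12 and 9.31 in DMSO arrays. The 2 ranges overlapped through the third TFMPP pair, which had the lowest treated and the highest DMSO level, and the change was 0.32 ± 0.04 (adjusted p = 5.96e-05, higher in 11 of 12 pairs). The second probe set of Rab7a lay at 0.10 and was not called. Rab12, which sends receptors from recycling endosomes to lysosomes, was 8.53, 8.99 and 9.35 in treated arrays and 8.31, 8.73 and 9.10 in DMSO arrays. Its change was 0.31 ± 0.05 in 12 of 12 pairs (adjusted p = 0.000105), and its second probe set rose by 0.27. Rab24, an autophagy Rab named after its values were seen, rose by 0.18. It missed the threshold without the third BZP pair, the first or the third TFMPP pair, the first MeOPP pair or the second or the third MDBP pair (adjusted p = 0.0555 to 0.0863), and with 1 value per preparation (0.118). The genes not called were Rab7b and Rab9b at 0.09 each and Rab9a at -0.02.

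**Figure D2:**
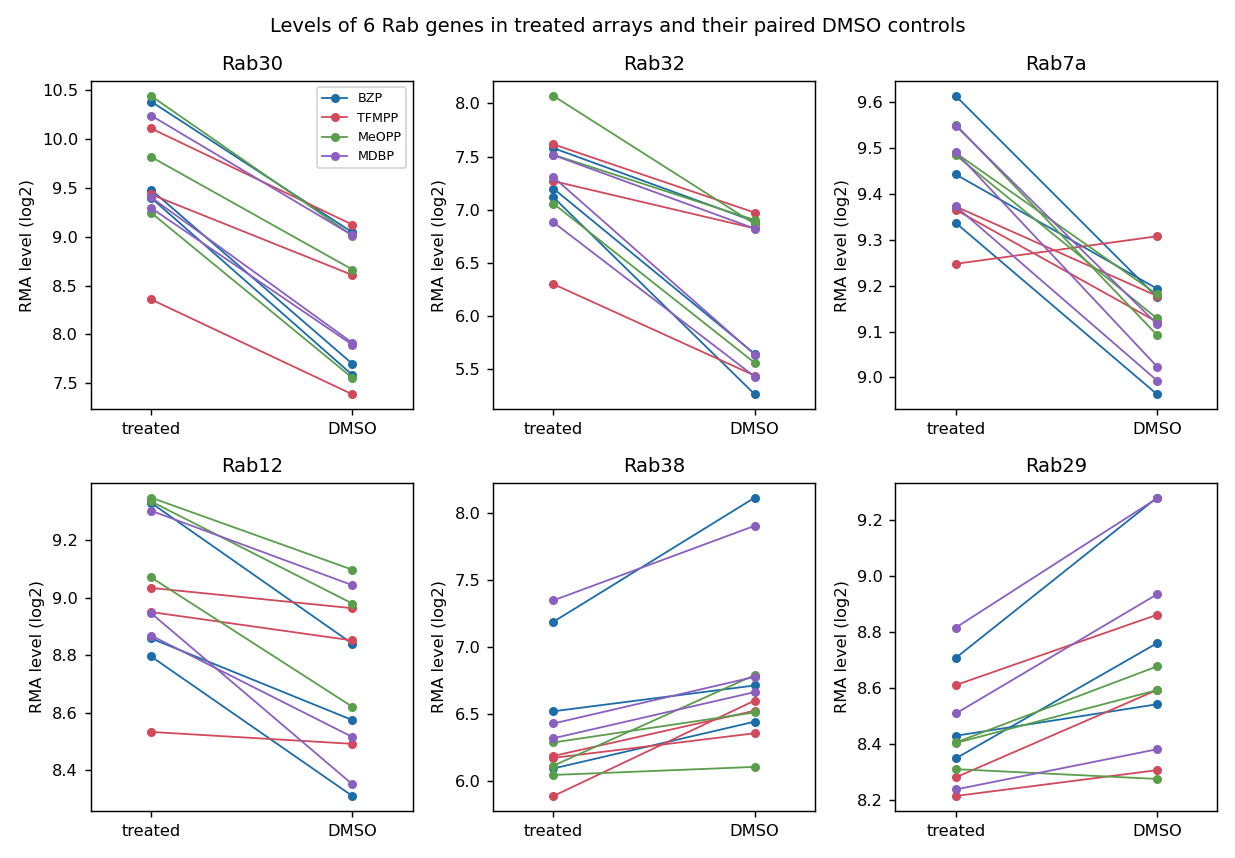
Log2 RMA levels of 6 Rab genes in the 12 treated arrays (left) and their paired DMSO arrays (right), with a line for each pair coloured by drug. Rab30, Rab32 and Rab12 were higher in 12 of 12 pairs and Rab7a in 11, while Rab38 was lower in 12 and Rab29 in 11. The vertical axes differ between panels.

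Among the 12 secretory and exocytic Rabs, 2 rose and 1 fell (25% called, against 29.9% of all genes). The rises were Rab10 (0.24, higher in 12 of 12 pairs) and Rab8b (0.19), named after their values were seen, which both act in delivery from the Golgi and recycling endosomes to the cell surface. The second probe set of Rab10 lay at -0.03 and was not called, while 1 of the 2 others of Rab8b was called at 0.22. With the probe sets averaged Rab10 was not called. Rab3d, a secretory granule Rab, fell to 5.15, 5.62 and 6.54 in treated arrays, against 5.60, 5.82 and 6.45 in DMSO arrays. The change of -0.23 ± 0.06 was lower in 9 of 12 pairs (adjusted p = 0.0108), and with 1 value per preparation its adjusted p was 0.101. Rab27a, which docks secretory vesicles, was dim at 4.36, 4.65 and 5.27 in treated arrays and 4.21, 4.55 and 5.46 in DMSO arrays, with a change of 0.04 ± 0.06 (adjusted p = 0.731).

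The 4 remaining Rabs were all called, 3 higher and 1 lower, against 29.9% of all genes called. Rab40c, a substrate adaptor of a cullin ubiquitin ligase, was 6.84, 7.15 and 7.39 in treated arrays and 6.54, 6.81 and 7.04 in DMSO arrays. Its change of 0.34 ± 0.05 was higher in 12 of 12 pairs (adjusted p = 0.000116). Its relative Rab40b was dim, at 2.26, 2.71 and 3.51 in treated arrays and 2.22, 3.05 and 4.49 in DMSO arrays. The change of -0.46 ± 0.10 was lower in 9 of 12 pairs (adjusted p = 0.00345). Its DMSO mean was 4.37 in preparation 2, where the change was -1.02, and 2.58 in preparation 1, where the change was -0.07. A second Rab40b probe set lay at -0.10 and was not called, and the gene drops out when dim probe sets are left out. The Rab40c change exceeded the Rab40b change by 0.17 to 1.38 in the 12 pairs, a comparison chosen for their opposite directions. Rab23, an inhibitor of Hedgehog signalling, was 5.00, 5.44 and 6.13 in treated arrays and 4.27, 5.38 and 5.96 in DMSO arrays, with a change of 0.21 ± 0.07 (adjusted p = 0.031, higher in 10 of 12 pairs). It missed the threshold without the third BZP pair (adjusted p = 0.0656), the first TFMPP pair (0.0816), the first MeOPP pair (0.0749), the third MeOPP pair (0.0529), the second MDBP pair (0.0661), the third MDBP pair (0.0755), and with 1 value per preparation (0.0981). Rab28, a ciliary Rab named after its values were seen, rose by 0.16. It missed the threshold in 8 of the 12 fits that left out 1 pair (adjusted p = 0.0515 to 0.0983 in those 8) and with 1 value per preparation (0.177). The pairs were the first and the third of BZP, the first and the second of TFMPP, the first and the second of MeOPP and the first and the third of MDBP.

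**Figure D3:**
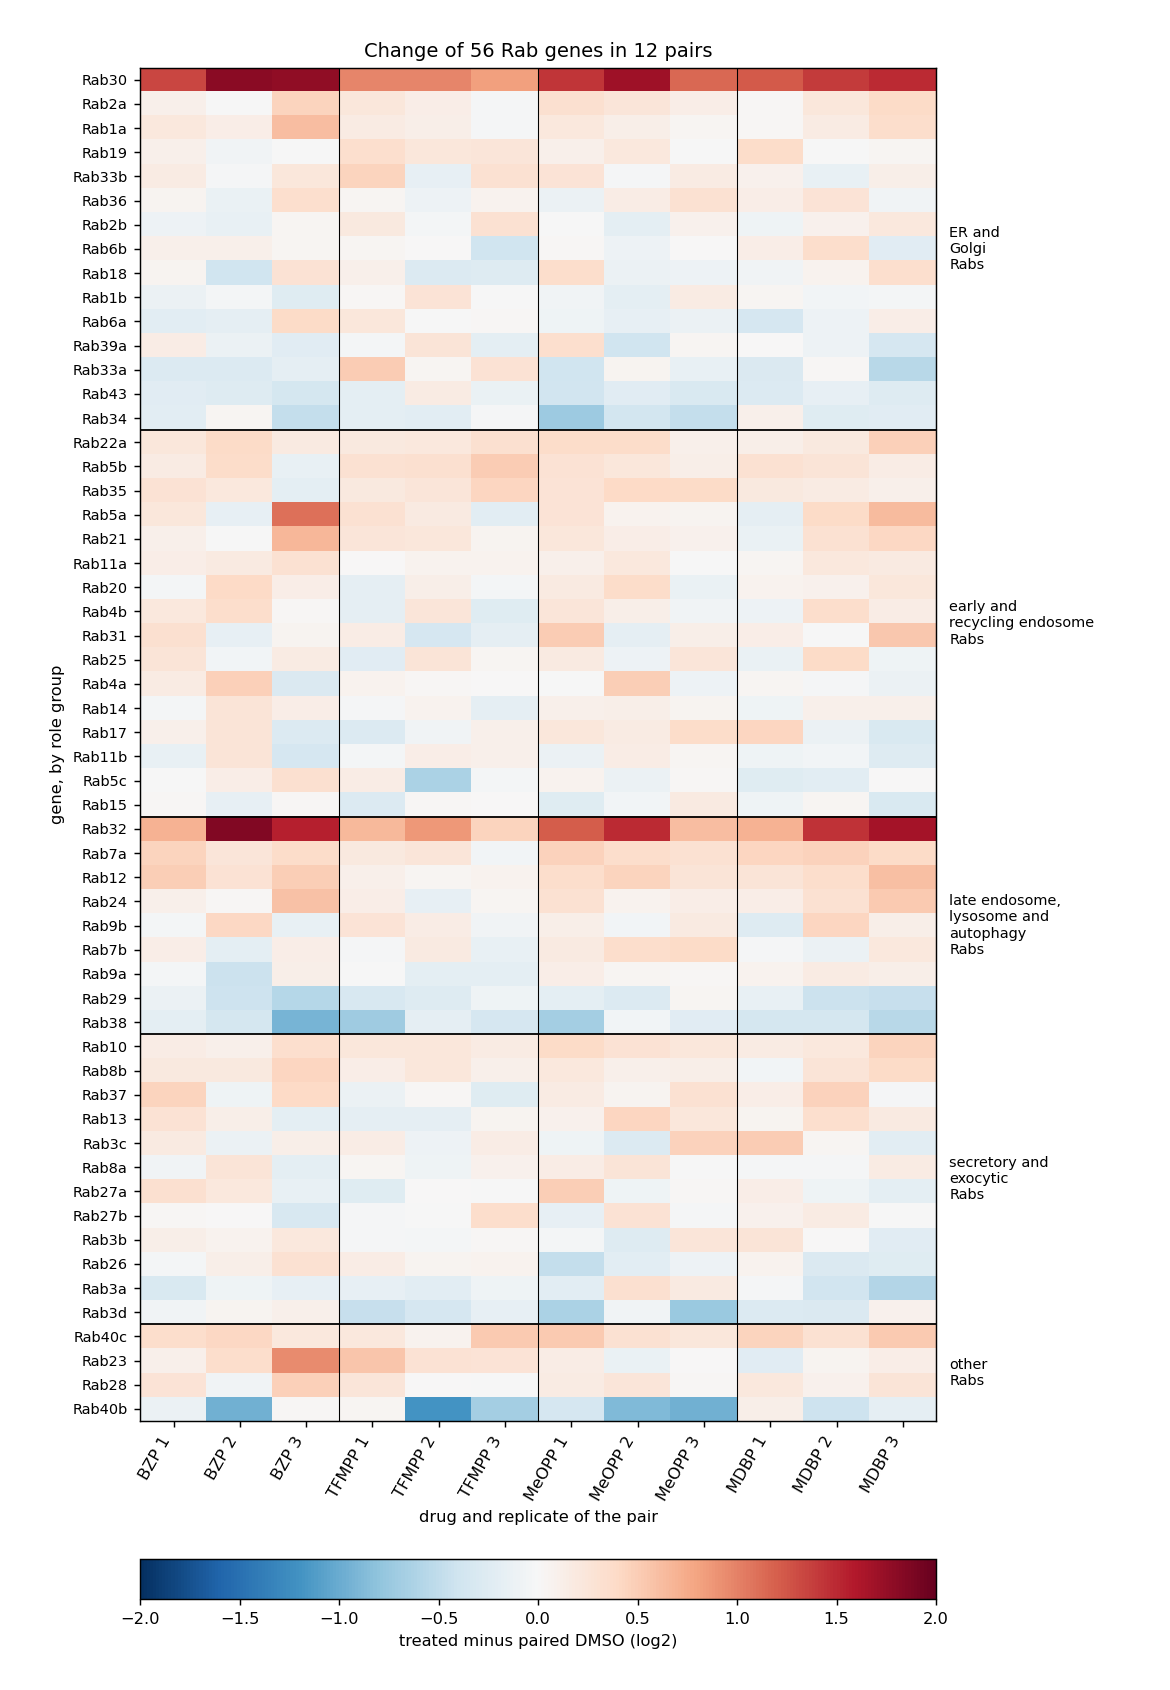
Change of each of the 56 Rab genes (rows, by role group) in each of the 12 pairs (columns, by drug), treated minus paired DMSO on the log2 scale, with red for higher and blue for lower. The Rab30 and Rab32 rows are red in all 12 columns and the Rab38 row is blue in all 12, while Rab5a reaches 1.11 in the third BZP pair and Rab40b -1.20 in the second TFMPP pair.

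Drug by drug, 44 Rab genes were called with no drug, 8 with 1, 3 with 3 and 1 with all 4. The share of all genes called with each number of drugs is not given here. Rab30 was called with every drug, and Rab32, Rab7a and Rab12 were called with BZP, MeOPP and MDBP. Of these calls, those of Rab30 held without any 1 pair of the drug, as did those of Rab32 with BZP and MDBP. The others were each lost without at least 1 pair, as given for each drug. The doses differed between the drugs, and each drug had 3 pairs.

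BZP raised 5 Rab genes and lowered 2 (12.5%), against 12.6% of all genes (6.66% higher and 5.96% lower). Rab30 was 10.38, 9.40 and 9.48 with BZP and 9.04, 7.59 and 7.70 in the paired DMSO arrays. Its change was 1.64 ± 0.11 or 3.12-fold (adjusted p = 2.15e-06). Rab32 was 7.58, 7.12 and 7.20 with BZP and 6.89, 5.26 and 5.64 in DMSO, a change of 1.37 ± 0.21 (adjusted p = 0.000544). For both genes every BZP array lay above every one of its controls. This also held, among others, for Rab7a and for Rab11a, which was not called with BZP (adjusted p = 0.173). The share of all genes separated in this way is not given here for any drug. The rises of Rab12 and Rab7a were 0.42 ± 0.09 and 0.35 ± 0.09. Rab23 was 6.06, 5.31 and 5.21 with BZP and 5.96, 4.96 and 4.27 in DMSO, a change of 0.46 ± 0.13 (adjusted p = 0.0361). Rab38 was 6.52, 6.10 and 7.19 with BZP and 6.72, 6.45 and 8.12 in DMSO, a change of -0.49 ± 0.14 (adjusted p = 0.0422). Rab29 was 8.43, 8.35 and 8.71 with BZP and 8.54, 8.76 and 9.28 in DMSO, a change of -0.37 ± 0.11 (adjusted p = 0.0407). These 3 genes overlapped with their controls. All 3 missed the threshold without the second BZP pair (adjusted p = 0.0727, 0.0759 and 0.148 for Rab23, Rab38 and Rab29) or without the third (0.401, 0.398 and 0.302). Rab12 and Rab7a missed it without the first pair (0.0557 and 0.109) or the third (0.0701 and 0.102). Without the first pair 5 Rab genes were called (8.93%, against 11% of all genes), without the second 4 (7.14%, against 8.88%) and without the third 2 (3.57%, against 6.76%).

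TFMPP changed 1 Rab gene (1.8%), which was higher, against 2.58% of all genes (0.872% higher and 1.71% lower). Rab30 was 10.11, 8.36 and 9.43 with TFMPP and 9.12, 7.39 and 8.61 in the paired DMSO arrays. Its change was 0.93 ± 0.11, a 1.90-fold rise in 3 of 3 pairs (adjusted p = 0.000708). Its levels overlapped with those of its controls across pairs. Rab32 was 7.61, 6.30 and 7.27 with TFMPP and 6.97, 5.44 and 6.82 in DMSO. That change of 0.65 ± 0.21, also positive in 3 of 3 pairs, did not pass the test (adjusted p = 0.162). Rab7a and Rab12 lay at 0.13 and 0.07 with TFMPP and were not called. At an unadjusted p under 0.05, limma counted 13 of the 56, against 14.8% of all genes.

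MeOPP raised 5 Rab genes and lowered 3 (14.3%), against 7.98% of all genes (3.45% higher and 4.52% lower). Rab30 was 10.44, 9.24 and 9.82 with MeOPP and 9.01, 7.56 and 8.66 in DMSO, a change of 1.42 ± 0.11 (adjusted p = 6.89e-06). Rab32 was 8.07, 7.06 and 7.52 with MeOPP and 6.86, 5.56 and 6.90 in DMSO, a change of 1.11 ± 0.21 (adjusted p = 0.00408). Rab7a was 9.55, 9.48 and 9.49 with MeOPP and 9.09, 9.13 and 9.18 in DMSO, a change of 0.37 ± 0.09 (adjusted p = 0.019). For each of the 3 genes every MeOPP array lay above every one of its controls. This also held, among others, for Rab35 and for Rab10, which was not called with MeOPP (adjusted p = 0.0595). Rab12 and Rab35 rose by 0.35 each. The falls were Rab34 at 6.16, 6.30 and 6.50 with MeOPP and 6.89, 6.67 and 6.98 in DMSO (-0.53 ± 0.11, adjusted p = 0.00932), and Rab3d at 5.15, 5.56 and 5.56 with MeOPP and 5.78, 5.63 and 6.30 in DMSO (-0.48 ± 0.12, adjusted p = 0.0274). Rab40b was 2.34, 3.51 and 2.54 with MeOPP and 2.68, 4.40 and 3.51 in DMSO (-0.73 ± 0.21, adjusted p = 0.0482). The Rab34 and Rab3d levels with MeOPP lay below all of their controls, and those of Rab40b overlapped. Without the first MeOPP pair 2 Rab genes were called (3.57%, against 3.4% of all genes), and without the second or the third 3 (5.36%, against 3.49% and 5.34%). Rab7a and Rab40b missed the threshold without any 1 of the MeOPP pairs (adjusted p = 0.154, 0.0939 and 0.0555 for Rab7a and 0.0631, 0.248 and 0.234 for Rab40b, in the order of the pairs left out). Rab34 did so without the first pair (0.127), Rab3d without the first (0.213) or the third (0.216) and Rab32 without the second (0.0718). Rab12 (0.151, 0.212 and 0.0637) and Rab35 (0.136, 0.215 and 0.171) also missed it without any 1 of the pairs.

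MDBP raised 5 Rab genes and lowered 0 (8.9%), against 9.73% of all genes (4.68% higher and 5.05% lower). Rab30 was 10.24, 9.29 and 9.40 with MDBP and 9.01, 7.89 and 7.91 in DMSO, a change of 1.37 ± 0.11 (adjusted p = 5.83e-06). Rab32 was 7.51, 6.88 and 7.31 with MDBP and 6.82, 5.43 and 5.63 in DMSO, a change of 1.27 ± 0.21 (adjusted p = 0.00131). Rab7a was 9.55, 9.49 and 9.37 with MDBP and 9.12, 9.02 and 8.99 in DMSO, a change of 0.43 ± 0.09 (adjusted p = 0.00767). For these 3 genes every MDBP array lay above every one of its controls. This also held, among others, for Rab40c and for Rab10, which was not called with MDBP (adjusted p = 0.0811). Rab40c and Rab12 were the other rises, at 0.42 and 0.40. Without the second MDBP pair 2 Rab genes were called (3.57%, against 4.29% of all genes) and without the third 3 (5.36%, against 3.76%). Rab7a missed the threshold without the second pair (adjusted p = 0.0708) and Rab12 without the second (0.0646) or the third (0.179). Rab40c missed it without any 1 of the MDBP pairs (0.0794, 0.0545 and 0.158, in the order of the pairs left out).

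**Figure D4:**
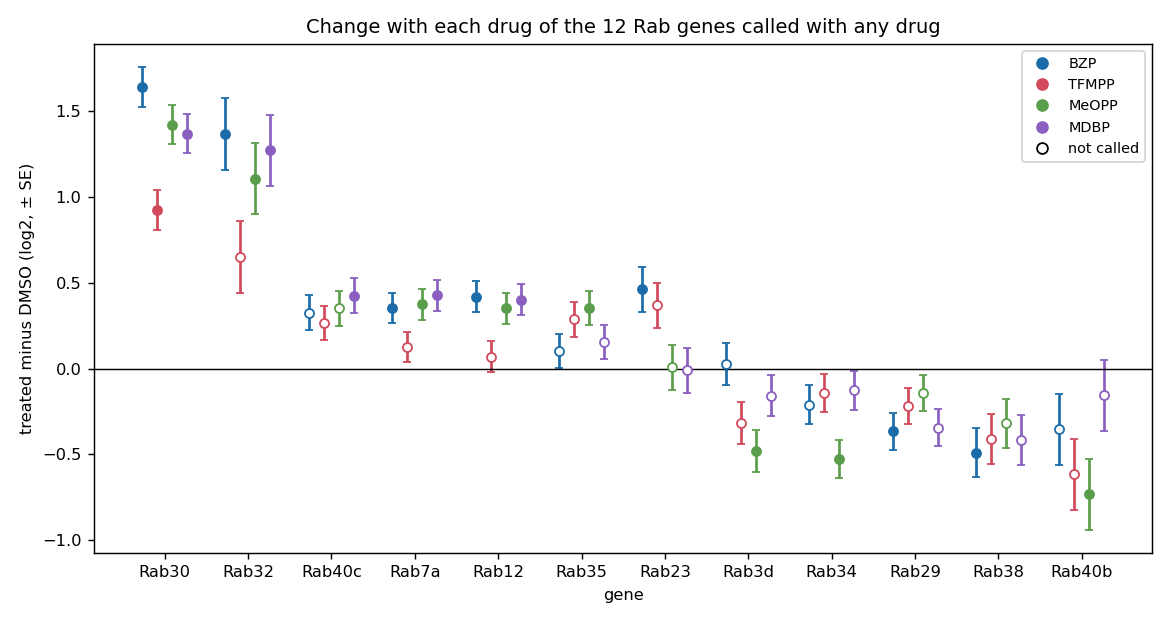
Change with each drug of the 12 Rab genes called with at least 1 drug, treated minus paired DMSO on the log2 scale with the standard error of the model (3 pairs per drug). Filled points were called and open points were not. Rab30 is filled for all 4 drugs, and the TFMPP points of Rab32, Rab7a and Rab12 are open at 0.65, 0.13 and 0.07.

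A difference between drugs was tested directly in 6 comparisons, and limma called 0 of the 56 Rab genes in each. Over all genes, 0.0914% were called between BZP and TFMPP and 0% in each of the other 5. At an unadjusted p under 0.05 the Rab genes numbered 5 for BZP minus TFMPP (7.41%), 3 for BZP minus MeOPP (6.83%), 1 for BZP minus MDBP (3.25%), 6 for TFMPP minus MeOPP (5.49%), 4 for TFMPP minus MDBP (7.1%) and 2 for MeOPP minus MDBP (4.42%), with the share of all genes in brackets. Rab30 differed by 0.72 between BZP and TFMPP, with a 95% interval of 0.37 to 1.06 before adjustment (adjusted p = 0.251). For TFMPP minus MeOPP the difference was -0.50 (-0.84 to -0.15), and for TFMPP minus MDBP it was -0.44 (-0.79 to -0.10). Between BZP and MDBP it was 0.27, with an interval of -0.07 to 0.62. Rab32 differed by 0.72 between BZP and TFMPP (0.09 to 1.34, adjusted p = 0.745). A call with 3 drugs and not with TFMPP is therefore no called difference between the drugs for Rab32, Rab7a or Rab12. Before adjustment, Rab12 had intervals of 0.07 to 0.62 for BZP minus TFMPP, -0.56 to -0.01 for TFMPP minus MeOPP and -0.61 to -0.06 for TFMPP minus MDBP. Those of Rab7a were -0.04 to 0.50, -0.52 to 0.02 and -0.57 to -0.03 in the same order. Rab33a, named after its values were seen, differed by 0.55 for TFMPP minus MDBP (0.20 to 0.91, adjusted p = 0.583).

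In the DMSO arrays, 43 Rab genes had a mean log2 level of at least 5 and 13 were below it. The range of a gene over the 12 DMSO arrays had a median of 0.75, ran between 0.21 and 2.28, and exceeded 1 log2 unit in 17 genes. Rab40b (2.28), Rab5a (2.11), Rab38 (2.01), Rab30 (1.73), Rab32 (1.71) and Rab23 (1.69) had the 6 widest ranges and were named for that after their values were seen. Rab30 had DMSO means of 9.05, 7.51, 7.81, 8.64 and 7.89 in preparations 1 to 5. Its changes in the same order were 1.24, 1.49, 1.63, 0.99 and 1.40. Rab32 had DMSO means of 6.89, 5.42, 5.64, 6.86 and 5.43, with changes of 0.81, 1.41, 1.61, 0.53 and 1.45. For both genes the preparations 1 and 4 had the highest DMSO means and the smallest rises. The DMSO level enters the change with a minus sign, so the 2 values are not independent. Preparation 4 held TFMPP and MeOPP pairs, so drug and preparation overlap in part. Rab38 changed by -0.48, -0.20, -0.74, -0.28 and -0.34, lower in each preparation. The median change over all 56 Rab genes was 0.07, 0.06, 0.10, 0.06 and 0.08 in preparations 1 to 5.

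Of the 56 genes, 27 had several probe sets, which gave 41 further ones. In 5 of these both the main and the further probe set were called in the same direction, in 1 (Rab2a) in opposite directions, in 10 the main one alone, in 3 the further one alone and in 22 neither. The 3 further probe sets called alone belonged to Rab14 (0.16), Rab6a (0.27) and Rab3a (-0.20), named after their values were seen. Of the 13 number families with several genes, Rab40 was the family with calls in both directions, and Rab1, Rab2, Rab5, Rab7 and Rab8 each had 1 gene called higher and Rab3 had 1 called lower. A total of 3 probe sets name both Rab1a and Rab1b and were given to neither gene.

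Partners of the Rab proteins were read from 4 lists, of which 131 of 149 genes were measured. Of these, 47 were called in the mean of the 4 drugs (35.9%), with 31 higher and 16 lower, against 29.9% of all genes. The lists were chosen with earlier results of these data known. In the prenylation and delivery list 3 of 10 rose and 0 fell. Fdps, the farnesyl diphosphate synthase that feeds both isoprenoid and cholesterol synthesis, was 11.7, 12.3 and 12.6 in treated arrays and 10.7, 11.1 and 11.7 in DMSO arrays, a change of 1.11 ± 0.06 in 12 of 12 pairs (adjusted p = 1.84e-09). Rabggtb, the catalytic subunit of the Rab prenyltransferase, changed by 0.24 ± 0.05, and Gdi2, which carries GDP-bound Rabs, by 0.14 ± 0.05. Rabggta, the other subunit, lay at -0.03 and was not called.

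Among 40 exchange factors, 8 rose and 5 fell (32.5% called, against 29.9% of all genes). The 3 highest rises were Dennd2c (0.65 ± 0.10), an exchange factor for Rab9 in human cells, the TRAPP subunit Trappc6b (0.34 ± 0.07) and the Rab3 exchange factor Madd (0.32 ± 0.05). The 3 deepest falls were Dennd2b (-0.66 ± 0.06), lower in 12 of 12 pairs, the Rab5 exchange factor Rin2 (-0.37 ± 0.05) and Dennd10 (-0.20 ± 0.04). The exchange factor of Rab32 and Rab38, formed by Hps1 and Hps4, lay at 0.13 and 0.11 for its subunits, neither of them called. Among 34 GTPase-activating proteins, 7 rose and 6 fell (38.2% called, against 29.9% of all genes). Tbc1d9 (0.79 ± 0.11), the Rab7 regulator Tbc1d2 (0.45 ± 0.06) and Tbc1d12 (0.24 ± 0.08) had the highest rises, and Tbc1d31 (-0.35 ± 0.07), Rabgap1l (-0.32 ± 0.07) and Evi5 (-0.24 ± 0.04) the deepest falls.

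Among 47 effectors, 13 rose and 5 fell (38.3% called, against 29.9% of all genes). Rufy1, which acts with Rab4 on early endosomes, was 7.87, 8.32 and 8.84 in treated arrays and 6.86, 7.37 and 7.88 in DMSO arrays, a change of 0.89 ± 0.06 in 12 of 12 pairs (adjusted p = 2.79e-08). Plin3, a lipid droplet coat protein that also binds Rab9, was 9.86, 10.35 and 10.66 in treated arrays and 9.22, 9.56 and 9.96 in DMSO arrays, a change of 0.77 ± 0.06 (adjusted p = 6.29e-08). The Rab5 effectors Appl1 and Appl2 went in opposite directions, at 0.44 ± 0.07 with 12 of 12 pairs higher and -0.25 ± 0.04 with 12 of 12 pairs lower. Osbpl1a, a sterol sensor that binds Rab7, changed by -0.31 ± 0.06, and Hook1, a microtubule linker, by -0.31 ± 0.08.

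**Figure D5:**
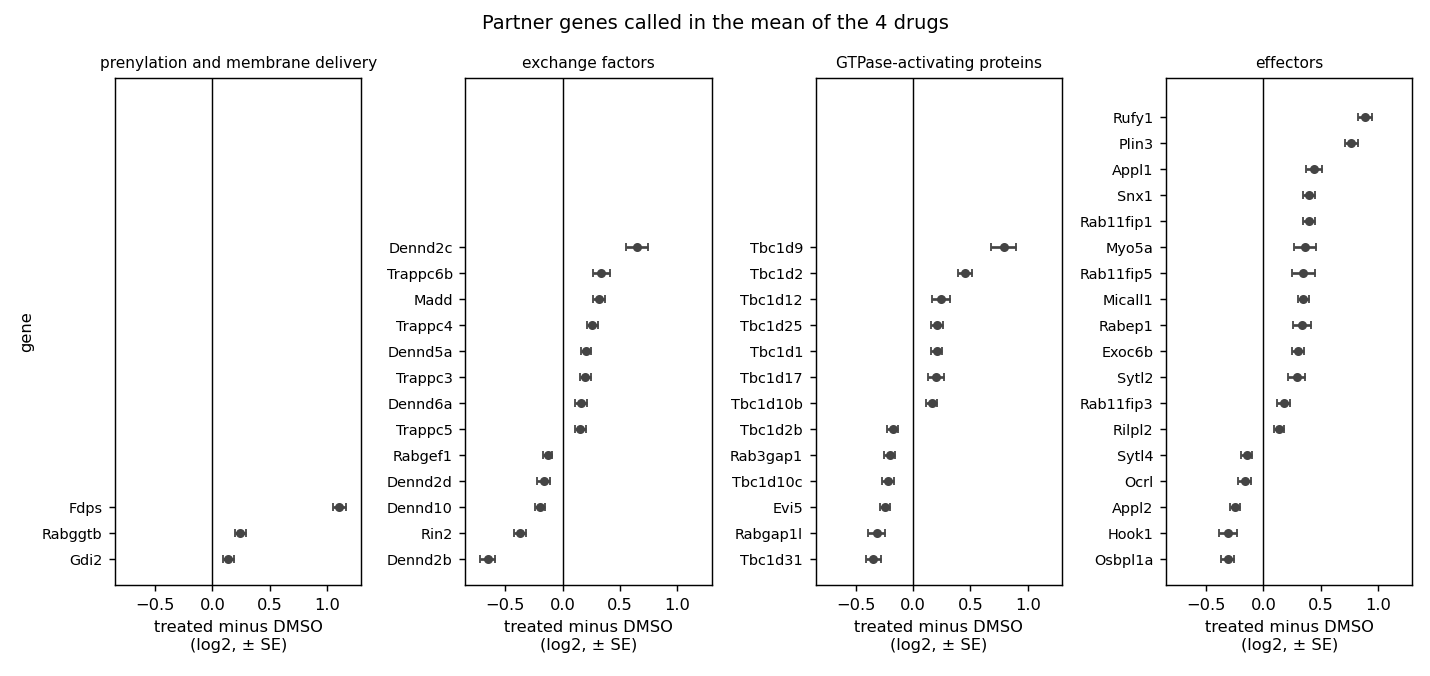
Mean change over the 4 drugs of the 47 called partner genes in 4 lists, treated minus paired DMSO on the log2 scale, with the standard error of the model as bars. Points to the right of 0 were higher with the drugs and points to the left lower, and Fdps at 1.11 is the farthest to the right.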

How the data were processed

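RNA of 12 treated and 12 DMSO arrays had been labelled for an Affymetrix rat expression array, per the labels. The deposited values were log2 levels made by RMA (background correction, quantile normalization and probe summary), per the submitters' processing notes, in a version not given in the sources used here. They were used as deposited, with array medians of 4.448 to 4.519. Arrays carry no read depth, and their number limits the precision.

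After 57 control probe sets were left out, 31042 remained. GEO's platform table gave 1 symbol for 20826, several for 436 and none for 9780, and the probe set with the highest mean stood for a gene. All 24 arrays were fitted in limma 3.58.1 (R 4.3.3) with 12 pair and 4 drug terms, leaving 8 residual degrees of freedom. Two-sided moderated p-values were adjusted by Benjamini-Hochberg over all 31042 probe sets (threshold 0.05), and SE is the model's standard error. No label says that the arrays are of separate animals, so the p-values reflect a spread that may be technical. Plots used matplotlib 3.10.9 (Python 3.11.15).

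The control titles give the pairs, and the deviations from the group means within a pair correlated at 0.612 to 0.802. Preparations were inferred by clustering the DMSO arrays at a correlation of 0.993. The first pairs of all drugs form preparation 1. The second pairs form preparation 2, except that of MDBP, which is preparation 5. The third pairs form preparation 3 for BZP and MDBP and preparation 4 for the other drugs.

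The members, role groups, lists, tests and preparations were chosen with earlier results of these data known. Values are given for the 6 largest called rises and falls in the mean, the 3 largest per drug and per partner list, and for Rab1a, Rab5a, Rab7a, Rab11a, Rab18, Rab27a and Rab30. Alternatives left out the pair terms, dim probe sets (mean log2 under 5) or each pair, repeated the normalization, averaged probe sets, or used a drug's own arrays or 1 value per preparation.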

Additional observations from a re-analysis of the deposited data

How the results depend on the processing

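With no replicate block, that is without the 12 pair terms, 6 Rab genes were called in the mean of the 4 drugs, all 6 among the 22 and all higher, 15 partners were called in place of 47, and 0 Rab genes were called with each of the 4 drugs. Of all genes that fit called 8.57% in the mean and 0.00703% to 0.169% with a drug. Rab30 and Rab32 had adjusted p = 0.005 and 0.011 in the mean in that fit. With 1 value per preparation 14 Rab genes and 29 partners were called, and 19.2% of all genes. With dim probe sets left out 43 Rab genes remained, and the counts were 23 in the mean (53.5%, against 48.9% of all genes), 11 with BZP (25.6%, against 24.7%) and 2 with TFMPP (4.65%, against 5.41%). With the arrays of a drug alone BZP had 2 (3.57%, against 5.04%), TFMPP 3 (5.36%, against 5.11%), MeOPP 4 (7.14%, against 6.04%) and MDBP 3 (5.36%, against 6.96%). Leaving out 1 pair at a time gave 17 to 24 in the mean and 37 to 46 partners. The counts per drug are from the fits that left out 1 of its own 3 pairs. BZP had 2 to 5 (against 6.76% to 11% of all genes) and TFMPP 1 (0.661% to 0.964%). MeOPP had 2 to 3 (3.4% to 5.34%) and MDBP 2 to 5 (3.76% to 7.23%). Fits without a pair of another drug are not in these counts. In the 6 differences between drugs, limma called 0 Rab genes under each alternative run. Rab18 changed sign around 0, at -0.039 to 0.046 without single pairs and 0.011 with 1 value per preparation, and Rab27a at -0.0045 to 0.073 and -0.0024. The causes were not tested. Dim genes such as Rab40b and Rab27a are limited by signal over background, and a drug by its 3 pairs.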
